A study of Arabidopsis thaliana with 12 samples.

Results

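The chloroplast of Arabidopsis carries its own small genome, and the transcripts described here are those of every row of the 2 expression tables whose locus identifier begins with ATCG. The rule found 133 such rows among 33607 and reads the identifier alone, although earlier results of these data were known when it was set. Messenger RNA was sequenced from wild-type Arabidopsis thaliana of the Columbia-0 (Col-0) accession, in 12 libraries that form 4 groups of 3. Seedlings were raised for 10 days on full ES medium with 1.5% sucrose in square dishes of 25 seedlings each, kept in light (50 µmol per square metre and second) without a dark period. They were then moved to fresh full ES medium (control) or to ES medium without iron and with 100 µM FerroZine, a chelator that binds ferrous iron (-Fe). Whole rosettes and roots were collected 72 h after the move, so that the groups are rosette control, rosette -Fe, root control and root -Fe. The labels give the replicates numbers but do not say whether they were separate plates or plants, so the p-values measure only the spread between these libraries, which may be technical. The comparison of interest was -Fe with control within each organ.

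Chloroplast genes encode core subunits of both photosystems, of the cytochrome b6f complex, of ATP synthase and of the NDH complex, the large subunit of Rubisco, part of the plastid ribosome and its RNAs, transfer RNAs and a bacterial-type RNA polymerase. Many of these proteins hold iron as heme or iron-sulfur clusters, which makes the chloroplast a main user of iron in a leaf. The bacterial-type polymerase needs sigma factors that are encoded in the nucleus, and most of the protein complexes join chloroplast-encoded with nuclear-encoded subunits. In plastids, as in bacteria, a poly(A) tail is short and marks an RNA for decay, so libraries of polyadenylated RNA sample plastid transcripts thinly and a level in them is not the level of the whole transcript pool.

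The reference annotation (RefSeq, TAIR10.1) lists 129 chloroplast genes. Of these genes 15 belong to the psb family of photosystem II, 5 to psa of photosystem I, 6 to pet of the cytochrome b6f complex, 6 to atp, 12 to ndh, 14 to rps and 11 to rpl of the ribosome, 4 to rpo of the polymerase, 7 to ribosomal RNA and 37 to transfer RNA. Neither the tables nor the reference pair the ATCG identifiers with these names, so most rows are given by identifier only. The reference's notes on nuclear genes name 6 of them. ATCG00670 is noted as the plastid-encoded ClpP protease subunit, ATCG01310 as ribosomal protein L2, ATCG00660 as ribosomal protein L20, ATCG00750 as ribosomal protein S11, ATCG00530 as a CemA-like protein and ATCG00430 as "photosystem II reaction center protein G". The gene list set before the fits has ATCG00430 as NDHK, an iron-sulfur protein of the NDH complex, so its noted name is not taken as an identity. A further set was placed by length alone, because a gene without reads stood at a floor that was inversely proportional to its length. By this measure 29 rows had a length that only transfer RNA genes of the reference share, and 7 matched the length of 1 gene. Those 7 included ATCG00080 (psbI, a small photosystem II subunit), ATCG00590 (petL, of cytochrome b6f), and the rows ATCG00950 and ATCG01180 (rrn23S) and ATCG01170 (rrn4.5S), the last 2 kinds being ribosomal RNAs. A length match is not an identification.

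The chloroplast genome holds an inverted repeat of 26264 bases, from Pltd:84171-110434 and, read on the other strand, Pltd:128215-154478 (TAIR10.1). The 129 listed genes count each copy, and 32 of them form 16 pairs of copies in the repeat. The inner ends of both copies are shown because reads from within the repeat fit both copies equally well, so that rows of a repeated gene share their source of reads. Capitals mark the last 30 bases that both copies share, and lower case the single-copy sequence that follows.
first copy, Pltd:110405-110464, plus strand: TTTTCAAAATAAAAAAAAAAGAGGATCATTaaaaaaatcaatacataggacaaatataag
second copy, Pltd:128185-128244, minus strand: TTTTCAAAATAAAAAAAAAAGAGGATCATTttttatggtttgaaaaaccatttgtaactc
The 103-base gene of the 4.5S ribosomal RNA lies inside the repeat, and its copies at Pltd:107599-107701 (plus) and Pltd:130948-131050 (minus) are the same base for base. It is shown as the repeated gene whose length ATCG01170 matched; its partner row ATCG00960 gave no length.
rrn4.5S, both copies: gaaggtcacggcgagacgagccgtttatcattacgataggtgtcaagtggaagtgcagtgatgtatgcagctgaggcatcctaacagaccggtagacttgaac

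Levels were low, and they were lower in roots than in rosettes. Values are those deposited as RPKM (reads scaled by gene length and by library total), but their distributions had also been equalised between the libraries of an organ. They come in a separate table for each organ, so levels across organs rest on separately scaled tables. In rosettes 97 of the 133 rows had a mean of at least 1 over the 6 libraries and were tested, and 65 of those 97 were under 5. In roots 45 rows were tested, of which 34 were under 5. The row nearest above the filter in rosettes was ATCG00610 with a mean of 1.08 and the nearest below was ATCG00890 with 0.967. In roots these were ATCG00080 with 1.01 and ATCG00065 with 0.985. Of the 42 rows tested in both organs 40 had the higher mean in rosettes, with a median ratio of 3.21 and a range from 0.98 to 21.1. Rows of ATMG loci, the mitochondrial genome, summed to between 131.7 and 255.7 RPKM in the rosette libraries and to between 920.8 and 1229 in the root libraries, the reverse order.

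**Figure D1:**
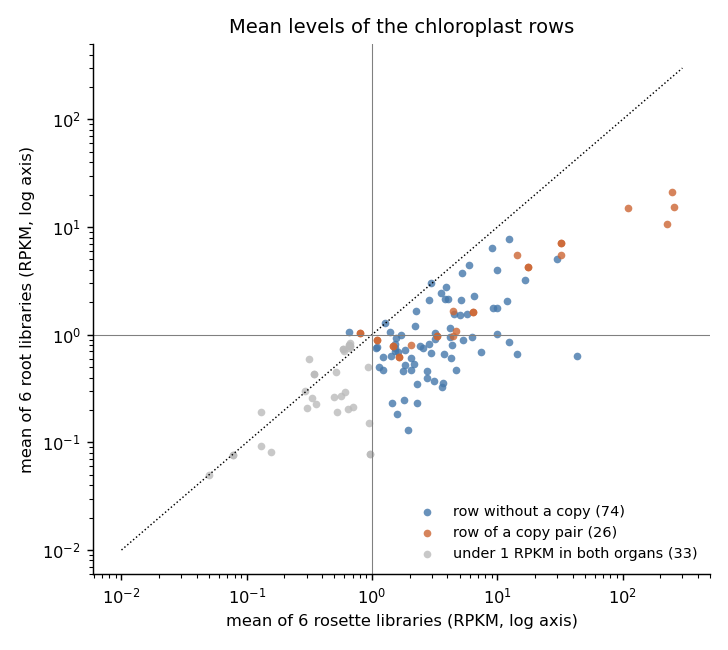
Mean level of each of the 133 chloroplast rows over the 6 root libraries (vertical, RPKM, log axis) against the 6 rosette libraries (horizontal, RPKM, log axis); grey lines mark the filter at 1 and the dotted line equal levels. Of the 42 rows past the filter in both organs 40 lie below the dotted line, and the 4 highest rosette rows are all rows of copy pairs.

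The highest rows belonged to copy pairs. In rosettes ATCG00950 and ATCG01180 had means of 259.2 and 249.8 RPKM, ATCG01210 of 225.2 and ATCG00920 of 110.9, and these 4 rows held 51.2% to 63.9% of the summed ATCG value in a rosette library. The length of the pair ATCG00920 and ATCG01210 left both rrn16S and ndhB as candidates. The highest row outside the pairs was ATCG00630, with 49.18, 49.60 and 41.02 RPKM in the rosette controls and 35.62, 46.17 and 38.97 under -Fe. The groups of ATCG00630 overlapped, and in roots it was at 0.42 in 5 of the 6 libraries. ATCG00630 was followed by ATCG01020, with 39.07, 31.49 and 25.47 in the controls and 29.87, 25.59 and 28.38 under -Fe. Some rows had no sign of a read: 11 rows in rosettes and 14 in roots held the same value in all 6 libraries, 10 of them in each organ of transfer RNA length.

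A pair of libraries stood apart from the rest of their groups in the chloroplast rows. Rosette -Fe library 3 held the highest value of all 6 rosette libraries in 39 of the 97 tested rows, and its rows lay a median of 0.28 above their mean on the log2 scale, while those of -Fe library 2 lay a median of 0.24 below (-0.24). Root control library 1 held the highest value in 20 of 45 rows, with a median deviation of 0.46. The 15 tested mitochondrial rows of rosette -Fe library 3 also lay above their mean, by a median of 0.31. In roots the 35 tested mitochondrial rows did not single out control library 1, with a median of 0.16 there and of 0.17 in -Fe library 3. Whether RNA quality, depth or another property of these libraries had a part in this was not tested, as the labels give RNA integrity only as a range per organ (8.3 to 8.7 in leaves, 9.8 to 10 in roots). The medians, and the calls that change without either library, are given below without it.

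**Figure D2:**
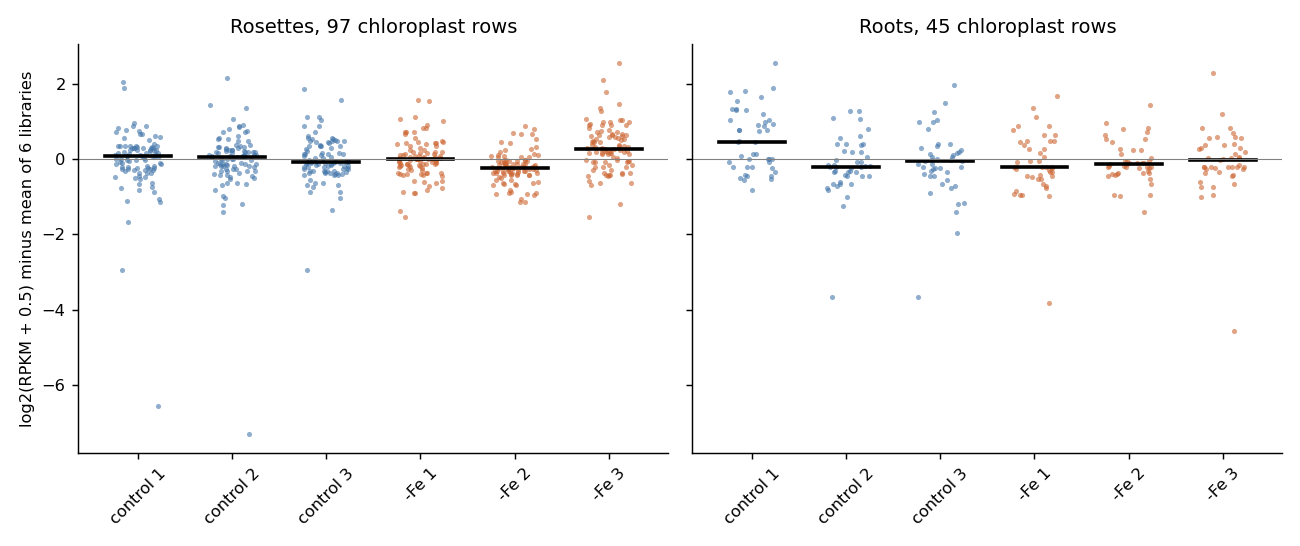
Deviation of each tested chloroplast row from its mean over the 6 libraries of the organ (log2 of RPKM + 0.5), by library; each point is a row and each black bar the median. The bar of rosette -Fe 3 lies at 0.28 and that of root control 1 at 0.46, above the bars of the other libraries of their organ.

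In rosettes the chloroplast rows that passed the test between -Fe and control were the 2 equal rows of 1 copy pair. Differences were fitted with limma on log2(RPKM + 0.5) over all 19006 genes tested in the organ, with Benjamini-Hochberg adjustment over all of them. Of the 97 chloroplast rows 2 (2.06%) passed an adjusted p of 0.05, both lower under -Fe, against a background of 1.96% of all genes tested (0.679% higher and 1.28% lower). With 1 row per pair 1 of 85 (1.18%) passed, so the share over all rows counts this pair 2 times. The median log2 difference of the 97 rows was 0.07, against 0.00 (0.001) over all genes, and without -Fe library 3 it was -0.10. A total of 9 rows reached an unadjusted p of 0.05 (9.28%, background 16.2%). The groups did not overlap in 8 rows (8.25%, background 21.4%), with 1 row higher (background 10.0%) and 7 lower (background 11.4%). Among the lower rows ATCG00980, ATCG01150 and ATCG00905 passed the filter of 1 only through the controls. The fitted difference was above 0 in 56 of 97 rows (57.7%, background 50.3%).

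These shares were read beside the spread of the rows. The median standard error of the 65 tested chloroplast rows under 5 RPKM was 0.374 on the log2 scale, and that of nuclear genes under 5 RPKM was 0.164. The 95% interval of the log2 difference lay within -1 and 1 for 36 of the 97 rows (37.1%), and for 92.7% of all genes tested. For the other chloroplast rows the interval reached a log2 difference of 1 in at least 1 direction, so these libraries do not show that their levels were alike.

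The 2 rows that passed are a copy pair of transfer RNA length, ATCG00980 and ATCG01150, with equal values throughout. Each was at 1.47, 1.41 and 1.76 RPKM in the rosette controls and at 0.65, the floor, in all 3 -Fe libraries. The groups did not overlap, and every -Fe library stood where a row without reads stands. The fitted log2 difference was -0.83 (SE 0.118, limma adjusted p = 0.0276), which depends on the 0.5 added and is no bound on the fold. The pair passed the filter of 1 only through the controls, with every -Fe value under 1, so its selection leaned on the difference that was tested. With the floor taken as 0.5 of a read, the control values amount to 0.63, 0.59 and 0.85 of a read per row on the common scale of the table, so the call rests on less than 1 read per row in each control library. The call was lost with each of the 6 libraries left out in turn: the adjusted p was between 0.0699 and 0.117 in 5 of these fits, and without control library 3 the rows were under the filter. ATCG00610, also near the filter (0.65, 1.94 and 1.94 in the controls, 0.65 in all 3 -Fe libraries), passed in the fit without control library 1 (limma adjusted p = 0.0334). ATCG00610 too passed the filter only through the controls, and the library left out was the only control at 0.65.

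The rows of largest fitted difference that did not pass were mostly rows of unequal copy pairs, which are given with their partners below. Outside the pairs the lowest was ATCG00210, at 8.32, 1.6 and 1.6 RPKM in the controls and 1.6, 1.6 and 0.53 under -Fe (log2 difference -1.03, SE 0.629, limma adjusted p = 0.484). Control library 1 alone set that row apart. Among the rows with a noted or length-matched name, ATCG00670 (ClpP, the catalytic subunit of the stromal protease) was at 4.69, 3.83 and 4.69 in the controls and 3.70, 4.39 and 5.64 under -Fe. Its log2 difference was 0.04 (SE 0.162, limma adjusted p = 0.936) and its groups overlapped. ATCG01310 and its equal partner ATCG00830 (ribosomal protein L2, of the large subunit) were at 8.15, 7.37 and 5.93 in the controls and 5.79, 5.77 and 5.42 under -Fe. Every -Fe library of the L2 pair lay below every control, but the difference of -0.30 (SE 0.121) did not pass (limma adjusted p = 0.3). ATCG00750 (ribosomal protein S11, of the small subunit) had means of 3.92 ± 1.55 and 6.06 ± 2.76 RPKM (SD, n = 3 each), with 9.25 in -Fe library 3 the highest value, and ATCG00080 (psbI length) had 9.06 ± 3.15 and 10.8 ± 0.269. Neither passed, at limma adjusted p = 0.510 for ATCG00750 and 0.578 for ATCG00080.

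Several rows were set by -Fe library 3 alone; these were chosen after their values were seen. ATCG00490 was at 11.42, 8.41 and 11.19 RPKM in the controls and at 7.48, 7.05 and 40.78 under -Fe. Its last -Fe value was 5.61 times the mean of the other 2, which both lay below every control. The log2 difference was 0.33 (SE 0.661, limma adjusted p = 0.855) with all libraries and -0.47 (adjusted p = 0.313) without that library. ATCG00340 was at 3.41, 2.76 and 3.49 in the controls and at 3.75, 2.69 and 12.12 under -Fe, and ATCG00350 at 3.20, 3.03 and 2.95 and at 3.84, 2.32 and 10.44. In both rows the first 2 -Fe values lay on either side of the controls, and the last was 3.76 times their mean in ATCG00340 and 3.39 times in ATCG00350. The pair ATCG00940 and ATCG01190, equal to each other, was at 34.11, 31.04 and 39.81 in the controls and at 15.11, 14.83 and 57.10 under -Fe. Without -Fe library 3 this pair passed as lower (log2 difference -1.19, limma adjusted p = 0.0185), and with it the difference was -0.56 (SE 0.520, adjusted p = 0.656).

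**Figure D3:**
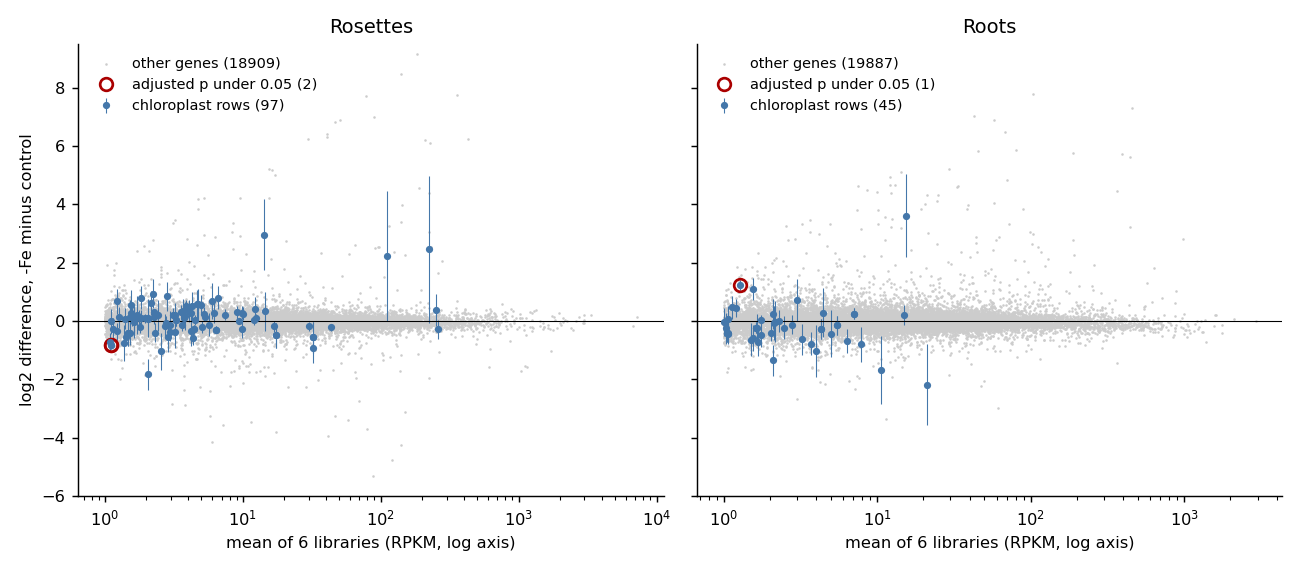
Log2 difference between -Fe and control (vertical, on log2 of RPKM + 0.5) against the mean of 6 libraries (horizontal, RPKM, log axis) in rosettes and roots; grey points are all other tested genes, blue points chloroplast rows with their standard error, red rings the rows with adjusted p under 0.05 (the 2 of the rosette pair coincide). The 3 ringed rows are all near the filter of 1 RPKM, and the 4 chloroplast rows with differences above 2 in the panels have long error bars.

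Copy pairs accounted for the largest fitted differences. The tables held 18 pairs of rows (36 rows) with matching values, beside 16 repeated genes in the reference, and 13 of the pairs were equal in all 12 libraries. Of the 216 pair values of all 18 pairs (pairs times libraries) 20 were unequal, and all of these lay in the other 5 pairs. The row that was low in such a library was often at its floor. The pair ATCG00960 and ATCG01170 shows the pattern. ATCG00960 was at 48.68, 19.58 and 61.15 RPKM in the rosette controls and ATCG01170 at 0.47, 19.58 and 0.47, while under -Fe both were at 21.22, 12.39 and 31.43. Control libraries 1 and 3 thus gave all of the signal to the first row, and the other 4 libraries split it evenly. Fitted alone, ATCG00960 differed by -0.92 (SE 0.505, limma adjusted p = 0.433) and ATCG01170 by 2.96 (SE 1.22, adjusted p = 0.311), in opposite directions within the pair. Added together, the pair was at 49.15, 39.16 and 61.62 in the controls and 42.44, 24.78 and 62.86 under -Fe, groups that overlap, with a log2 difference of -0.28 (SE 0.348, adjusted p = 0.752).

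ATCG00920 and ATCG01210 were unequal in every rosette library. ATCG00920 was at 0.03, 225.60 and 104.09 RPKM in the controls and ATCG01210 at 352.96, 0.03 and 250.08. Under -Fe ATCG00920 was at 149.64, 91.58 and 94.2 and ATCG01210 at 113.13, 137.35 and 497.64. Each row was at its floor in 1 control library, where its partner held the whole signal. The separate log2 differences were 2.24 (SE 2.23) for ATCG00920 and 2.46 (SE 2.52) for ATCG01210, and the sum differed by 0.11 (SE 0.389, limma adjusted p = 0.920). ATCG00950 and ATCG01180, of 23S length, summed to 553.18, 377.33 and 584.93 in the rosette controls and to 372.38, 398.56 and 767.82 under -Fe. The highest sum was again that of -Fe library 3, and the log2 difference of the sums was -0.03 (SE 0.316, adjusted p = 0.975). The last unequal pair with a large difference was ATCG00905 and ATCG01230, both at 2.80, 3.21 and 3.87 in the controls. Under -Fe ATCG00905 was at 0.19, 2.0 and 0.19 and ATCG01230 at 7.08, 2.0 and 9.04, so the rows differed by -1.83 (SE 0.518) and 0.59 (SE 0.497) and their sum by -0.01 (SE 0.293, adjusted p = 0.994). Single libraries decided which rows of these pairs passed. Without rosette control library 2, ATCG01170 passed as higher (4.42, limma adjusted p = 0.0147). Without rosette -Fe library 2, ATCG00905 passed as lower (-2.45, limma adjusted p = 0.00584). With a -Fe mean of 0.793, ATCG00905 passed the filter of 1 only through the controls, so its selection leaned on the difference that was tested.

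**Figure D4:**
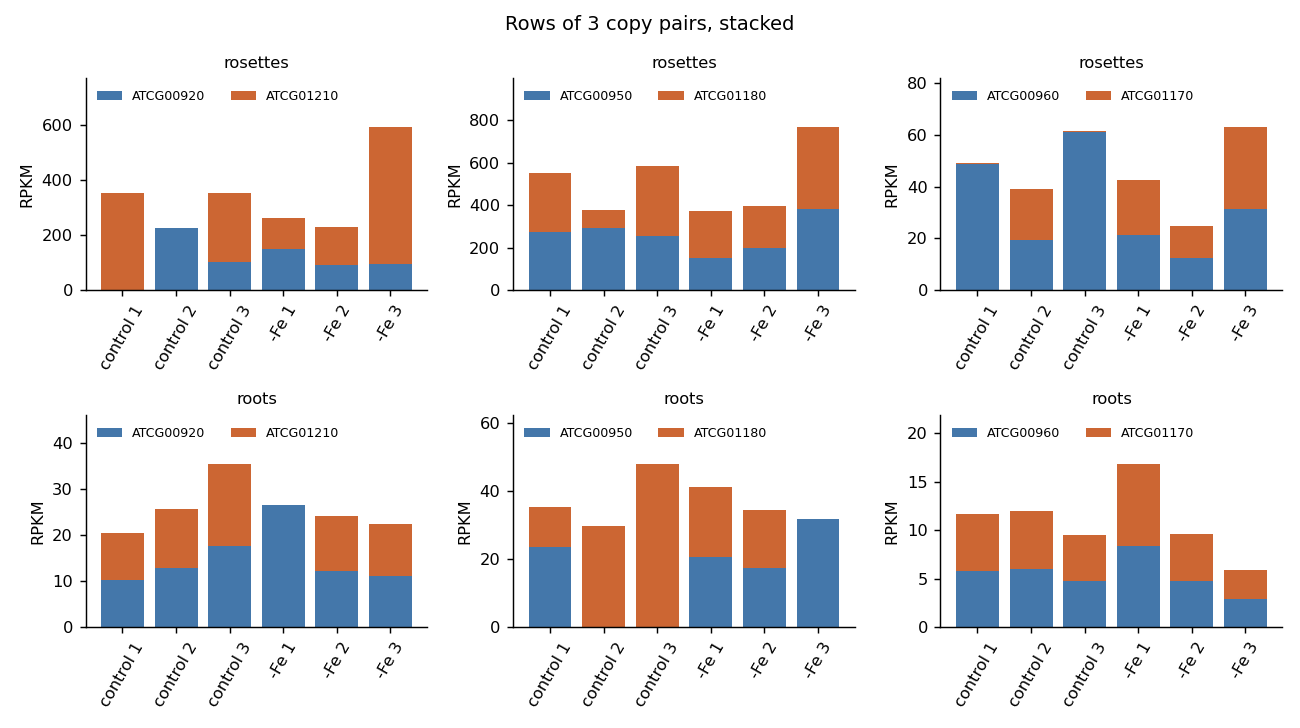
Values (RPKM) of the rows of 3 copy pairs in each library, stacked so that the bar height is the sum of the pair; upper panels rosettes, lower panels roots, blue the row of the lower number and orange its partner. The share of a row swings from all to none between libraries in ATCG00920 and ATCG01210 in rosettes and in ATCG00950 and ATCG01180 in roots. The rows ATCG00960 and ATCG01170 are equal in every root library, and in rosettes their sums lie between 24.8 and 62.9.

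The authors' deposited table of the rosette comparison gives a p under 0.05 for 3 of the 133 chloroplast rows, against 1.05% of all rows. All 3 are rows of unequal pairs: in the authors' deposited table ATCG00960 stands at a log2 fold change of -0.99 and ATCG01170 at 1.67, each with p = 0.01, and ATCG01210 at 0.31 with p = 0.02. The authors' deposited table of roots has 2 such rows, against 1.67% of all rows, and they are again the partners of 1 pair, ATCG00950 at 1.56 and ATCG01180 at -1.24, each with p = 0.01. The values behind that root pair were 23.56, 0.02 and 0.02 RPKM for ATCG00950 in the controls and 20.56, 17.26 and 31.69 under -Fe. For ATCG01180 they were 11.86, 29.56 and 47.94 in the controls and 20.56, 17.26 and 0.02 under -Fe. Here too 1 partner was at the floor in 3 libraries where the other was high. Their sums were 35.42, 29.58 and 47.96 in the controls and 41.12, 34.52 and 31.71 under -Fe, which overlap (log2 difference -0.05, SE 0.181, limma adjusted p = 0.908). Without root control library 1, ATCG00950 alone passed as higher (5.46, limma adjusted p = 0.000268).

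In roots 1 of the 45 tested chloroplast rows (2.22%) passed, and it rose under -Fe. The background was 5.87% of 19932 genes (3.52% higher and 2.35% lower). The median log2 difference of the chloroplast rows was -0.23, against -0.02 over all genes, and without control library 1 it was -0.08. A total of 4 rows reached an unadjusted p of 0.05 (8.89%, background 21.3%). The groups did not overlap in 2 rows (4.44%, background 26.1%), both higher (background 12% higher and 14.1% lower). These rows, ATCG00510 and ATCG00090, had control means of 0.563 and 0.733 and passed the filter of 1 only through the -Fe group. Their selection thus favoured the higher direction. The fitted difference was above 0 in 14 of 45 rows (31.1%, background 45.6%). The 95% interval lay within -1 and 1 for 9 of the 45 rows (20%), and for 92.5% of all genes tested.

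The row that rose was ATCG00510. It was at 0.71, 0.49 and 0.49 RPKM in the root controls and at 1.76, 2.34 and 1.87 under -Fe, so the groups did not overlap and 2 control libraries shared the lowest value, 0.49. The log2 difference was 1.23 (SE 0.173, limma adjusted p = 0.00941). If that lowest value is the floor of the row and stands for 0.5 of a read, as the steps of the rosette values show but those of the root values do not, the -Fe values amount to 1.3, 1.89 and 1.41 reads on the common scale. The row passed the filter of 1 only through the -Fe group, with a control mean of 0.563, so its selection leaned on the difference that was tested. In the fits with each of the 6 libraries left out in turn, which share that limit, the limma adjusted p was between 0.0184 and 0.048. In rosettes the same row was at 2.1, 1.26 and 0.42 in the controls and at 1.26 in all 3 -Fe libraries (log2 difference 0.12, SE 0.367, adjusted p = 0.905).

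**Figure D5:**
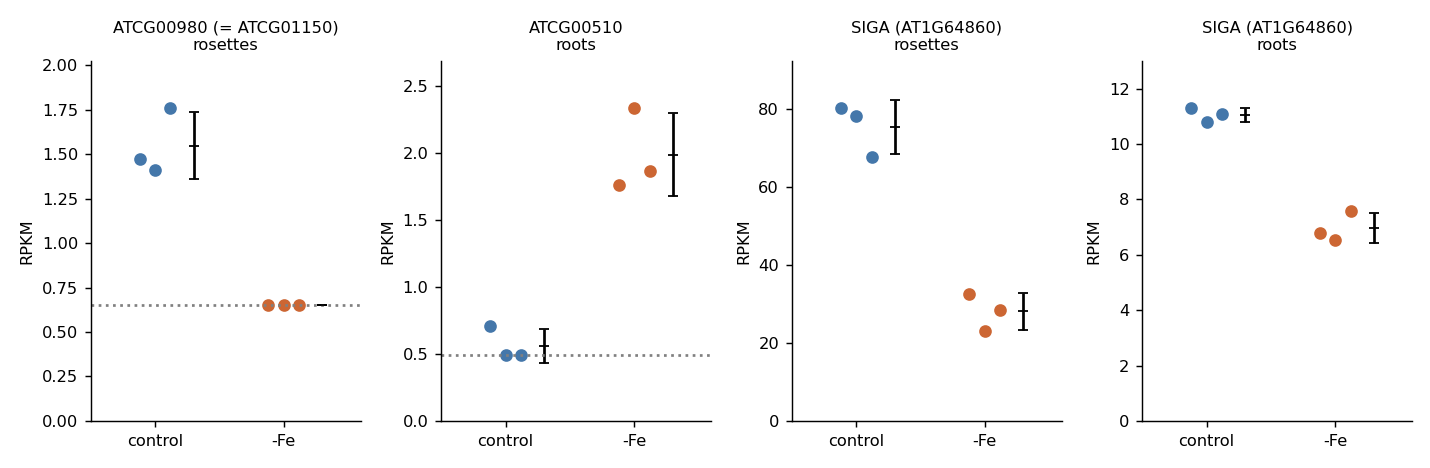
Values (RPKM) in each library of the 2 chloroplast patterns that passed, ATCG00980 with its equal partner in rosettes and ATCG00510 in roots, and of the nuclear sigma factor gene SIGA in both organs; points are libraries, black bars the mean with SD (n = 3), dotted lines the lowest value of the row. The -Fe points of ATCG00980 all lie on the floor of 0.65, and SIGA is lower in every -Fe library in both organs.

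Other root rows did not pass. ATCG00090 was at 0.92, 0.64 and 0.64 RPKM in the controls and 4.10, 1.95 and 1.11 under -Fe, groups that did not overlap (log2 difference 1.1, SE 0.370, limma adjusted p = 0.148). As said above, ATCG00090 passed the filter only through the -Fe group. ATCG00100, of transfer RNA length, was at 4.2, 0.78 and 5.20 in the controls and at 0.78, its floor, in all 3 -Fe libraries (-1.34, SE 0.532, adjusted p = 0.209). Without control library 2, the only control at the floor, it passed (-2.02, limma adjusted p = 0.00317). ATCG00100 passed the filter of 1 only through the controls, so its selection leaned on the difference that was tested. The unequal pairs gave the other extremes, with ATCG00950 at 3.62 (SE 1.43, adjusted p = 0.207), ATCG01180 at -2.18 (SE 1.40, adjusted p = 0.436) and ATCG01210 at -1.68 (SE 1.16, adjusted p = 0.468).

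Control library 1 set many of the root rows; these examples were chosen after their values were seen. ATCG00790 was at 22.66 RPKM there, and in the other 5 root libraries it was between 3.0 and 6.75. ATCG00780 was at 14.60 against a highest value of 6.35 elsewhere, ATCG00220 at 15.96 against 3.12, and ATCG00470 at 9.43 against 2.28. ATCG00670 (ClpP) did not follow, with 0.83 in control library 1 and 2.24 and 2.76 in the other controls.

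A difference in response between the organs was tested for the 42 rows with a mean of at least 1 in both. By the limma estimates none of the 42 passed an adjusted p of 0.05, against a background of 3.48% of 17680 genes; 5 rows were under an unadjusted p of 0.05 (11.9%, background 16.4%). The smallest adjusted p was 0.219, for ATCG00510, whose log2 difference was lower by 1.1 in rosettes than in roots (rosette minus root -1.1, SE 0.406). Single libraries decided this count. It was 1 without rosette control library 2, 1 without rosette control library 3, 2 without rosette -Fe library 3 and 1 without root control library 1.

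The share of the chloroplast rows in the summed value of a library did not separate the groups either. In rosettes ATCG rows held 0.211%, 0.167% and 0.216% of the summed RPKM in the controls and 0.166%, 0.151% and 0.306% under -Fe. The lowest and the highest library were both -Fe libraries. The means were 0.198 ± 0.0267 and 0.207 ± 0.0856 (SD, n = 3 each), with p = 1.0 in a two-sided exact permutation test whose smallest possible p is 0.1. Without -Fe library 3 the -Fe mean was lower by 0.0398 percentage points (-0.0398). Leaving out ATCG00920, ATCG00950, ATCG01180 and ATCG01210, the rosette sums were 589.1, 575.0 and 593.0 RPKM in the controls and 526.8, 431.3 and 769.1 under -Fe. These groups overlap too. When -Fe library 3, singled out by its values, was also left out, the means were 586 and 479 RPKM (exact permutation p = 0.1, the smallest possible). In roots the shares were 0.0447%, 0.0299% and 0.0347% in the controls and 0.0321%, 0.0296% and 0.0316% under -Fe, which overlap (exact permutation p = 0.3). As RPKM is per length, these are shares of summed levels, not of reads. In bulk tissue, fewer plastids or cells and less RNA per plastid cannot be told apart.

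Among nuclear genes that act on chloroplast transcription, 1 sigma factor gene fell in both organs. The nuclear lists, like the rule for the chloroplast rows, were set with earlier results of these data known. SIGA (AT1G64860, also SIG1), a sigma factor of the bacterial-type plastid polymerase, was at 80.36, 78.38 and 67.66 RPKM in the rosette controls and at 32.70, 23.17 and 28.40 under -Fe. It fell by 1.42 on the log2 scale (-1.42, SE 0.135, limma adjusted p = 0.00554). In roots it was at 11.31, 10.80 and 11.07 and at 6.78, 6.55 and 7.58, and fell by 0.63 (-0.63, SE 0.0848, adjusted p = 0.00754). Every -Fe library of SIGA lay below every control in both organs. The other 7 genes of the list of 6 sigma factors and 2 phage-type polymerases did not pass in rosettes, nor did the other 6 that were tested in roots. SIG4, a sigma factor named here after its values were seen, was the nearest in rosettes, with 30.6 ± 1.99 in the controls and 39.8 ± 2.06 under -Fe (SD, n = 3 each; limma adjusted p = 0.0545).

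Of 12 genes for proteins associated with the plastid polymerase, 3 fell in rosettes, where the background was 1.28% lower, and the median difference over the 12 was -0.22. FSD3 (AT5G23310), an iron superoxide dismutase of the polymerase complex, had means of 57.3 ± 0.954 and 46 ± 1.16 RPKM (SD, n = 3 each) and fell by 0.31 (-0.31, SE 0.0398, limma adjusted p = 0.0176). PDE312 (PTAC10, AT3G48500) fell by 0.27 (-0.27) and PTAC3 (AT3G04260) by 0.23 (-0.23), at adjusted p = 0.0361 and 0.0419. These 3 calls were lost on leaving out most single libraries: PDE312 and PTAC3 did not pass in any of the 6 such fits and FSD3 passed in 1. The differences themselves stayed between -0.29 and -0.24 for PDE312 (AT3G48500), -0.25 and -0.21 for PTAC3 (AT3G04260) and -0.33 and -0.29 for FSD3 (AT5G23310), and over all genes these fits called 170 to 325 in place of 372. In roots the median over the 12 was -0.23 with none of them past the threshold (smallest limma adjusted p 0.220). Of 6 genes for plastid RNA processing and decay, 5 were tested in roots and 1 fell, CRB (CSP41B, AT1G09340, a plastid RNA-binding protein), from 4.71 ± 0.191 to 3.23 ± 0.248 RPKM (SD, n = 3 each; -0.48, SE 0.104, limma adjusted p = 0.0457), a call that was lost with each of the 6 libraries left out in turn.

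Nuclear-encoded subunits that join chloroplast-encoded ones in the photosynthetic complexes were compared as a list of 29. In rosettes 5 of 29 fell, where the background was 1.28% lower, and the median was -0.13. The cytochrome b6f subunit gene AT2G26500 (petM in the reference) was at 898.90, 943.63 and 887.77 RPKM in the controls and at 307.85, 321.95 and 295.34 under -Fe (-1.56, SE 0.0512, limma adjusted p = 4.6e-05). The photosystem I subunits PSAN (AT5G64040, -1.53), PSAF (AT1G31330, -1.02) and PSAD-2 (AT1G03130, -0.97) fell with it, at adjusted p of 0.00308, 0.00151 and 0.0057. In roots 13 of the 24 tested fell, where the background was 2.35% lower, and the median was -0.54. The largest were PSBR of photosystem II (AT1G79040), from 48.0 ± 6.04 to 28.3 ± 1.54 RPKM (SD, n = 3 each; -0.74, limma adjusted p = 0.00726), and ATPC1 of ATP synthase (AT4G04640), from 14.7 ± 0.536 to 8.85 ± 0.760 (-0.71, adjusted p = 0.00455). PSBQ-2 (AT4G05180, -0.70) and PSAF (-0.68) followed, and the call of PSBQ-2 was lost with each of the 6 libraries left out in turn, that of PSAF (AT1G31330) without control library 2 (-0.65, limma adjusted p = 0.0561).

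Markers of the other organ were read beside these values. In rosettes 3 of 8 root markers passed the filter and none of the 3 passed the test (smallest limma adjusted p 0.729). The summed root markers ranged from 136 to 158 RPKM in the rosette controls and from 121 to 156 under -Fe. In roots 6 of 10 shoot markers were under 1 RPKM in every library, among them CA1, FMA (FAMA) and MYB0 (GL1). The 4 that were tested there were not near 0. Their root control means were 70.6 for CAB1 (LHCB1.3), 51.7 for RBCS1A, 19.8 for GAPA and 7.9 RPKM for LHCB2.1. The shoot markers summed to between 148 and 157 RPKM in the root controls and to between 111 and 137 under -Fe, and RBCS1A (AT1G67090), the small subunit of Rubisco and a member of the subunit list too, fell from 51.7 ± 4.04 to 38.8 ± 2.55 (SD, n = 3 each; -0.41, SE 0.079, limma adjusted p = 0.0326), a call that was lost in 5 of the 6 fits without 1 library, with differences from -0.47 to -0.36. CAB1, LHCB2.1 and GAPA had fitted root differences under 0 and did not pass (limma adjusted p = 0.584, 0.146 and 0.196). The shoot markers thus overlap the subunit list in their only called gene, and their part in the root results was not tested.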

How the data were processed

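Values were RPKM per gene for 12 libraries, deposited by the authors in 1 table per organ. The submitters' processing notes name bcl2fastq 1.8.4, Trimmomatic 0.35, Bowtie2 2.0.6, edgeR 3.12.1 and limma 3.26.9 with TAIR10, without roles; the use of strand is not given in the sources used here. The authors' deposited p-value and log2 fold change columns were only described. Per the values, distributions had been equalised within an organ: in rosettes RBCS1A and CAB1 traded the top ranks with 1 ratio (1.17132). A gene without reads sits at a floor inversely proportional to its length. In rosettes the values step as if the floor were 0.5 of a read (67.1% of low values near odd multiples, 4.42% near even ones), and in roots they do not (15.5% and 14.8%). The depth of a single library is unknown, so no counting error is given. Transgene rows (4 per table) were left out.

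Rows with a mean of at least 1 were fitted with limma 3.58.1 (R 4.3.3; trend, two-sided) on log2(RPKM + 0.5), Benjamini-Hochberg adjusted over all genes tested, and tested on simulated data first. Organ differences used both fits. Rows were taken as a copy pair when all 12 values, or at least 4 above the minimum, were equal. Alternatives were pseudocounts, filters, rescaling, array weights, no trend, 1 fit of 12 libraries, a replicate block, 1 copy per pair, and leaving out each library; summing pairs and leaving out rows of transfer RNA length were added after seeing the data. Named rows were those called, the 3 largest rises and falls per organ, those next to the filter, and, from the nuclear lists, up to 4 called per list. The members and lists were chosen with earlier results of these data known. Functional groups of chloroplast genes could not be formed, since identifiers and names are not paired here.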

Additional observations from a re-analysis of the deposited data

How the results depend on the processing

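Of the chloroplast rows 2 in rosettes and 1 in roots passed. The counts (rosettes, roots) stayed at 2 and 1 with pseudocounts of 0.1 or 1, nuclear median rescaling, array weights, no trend and 1 fit of all 12 libraries. They were 4 and 1 without a filter and 0 and 0 with a filter of 5 (unadjusted p under 0.05 for 3 and 1 rows by limma). With 1 copy of each pair, and with pair values summed, the rosette count was 1. Without rows of transfer RNA length it was 0 (7 rows at unadjusted p under 0.05). Leaving out 1 library gave 0 to 2 in rosettes, 1 to 2 in roots and 0 to 2 for the organ difference. Rescaling to the chloroplast median gave 6, 4 and, for the organ difference, 5; it moved the median of all genes to -0.05 in rosettes and 0.31 in roots, put the chloroplast median in roots at 0.10, and raised limma's degrees of freedom to 76024 and 79728, so that 1 shared spread replaced each row's own. Under it SIGA in roots was at -0.31 (adjusted p = 0.739). With a replicate block the counts were 0 in rosettes (smallest limma adjusted p 0.0769) and 1 in roots; same-numbered libraries did not deviate together in every pair (correlations over all genes of 0.09, -0.16 and 0.25 in rosettes, and -0.0033, 0.0062 and 0.10 in roots), so the numbers were not taken as pairs. Signs on leaving out 1 library were followed only for the called rows, the 3 largest rises and falls per organ, ATCG00940 and ATCG00490. Among these, the differences that changed sign were, in rosettes, ATCG00920 (from -0.49 without control library 1 to 3.88), ATCG01210 (from -0.59 without control library 2 to 4.11) and ATCG00490 (from -0.47 without -Fe library 3 to 0.76). Other chloroplast rows may have changed sign too and are not listed. In roots ATCG00950 turned to -0.0525 with pairs summed, by construction. The rosette share difference, 0.00939 percentage points, ranged from -0.0398 to 0.0377 over the fits without 1 library, and the root one from -0.00859 to -0.00123. Of all rosette genes 372 passed, 188 higher and 371 lower with array weights, 562 in the fit of all 12 libraries, 188 with the block and 170 to 325 without 1 library. Of all root genes 1170 passed, 692 without a filter, 340 with the chloroplast median and 550 to 988 without 1 library; with that median 319 were higher and 21 lower, against 701 and 469. The restriction to protein-coding rows was not run, since names are not paired with identifiers here. For the other changes the cause was not tested. The depth of a single library is unknown, so what depth limits could not be measured; the 3 called rows have 1 group at or near the lowest value of the row.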
